A study of Mus musculus with 8 samples.

Results

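The genes described here carry iron and haem across the intestinal epithelium, store iron in the cell or switch these genes on. They are 10 of the 19505 named genes on the array, chosen by symbol, and each had 1 probe set: Slc11a2, Cybrd1, Slc46a1 and Tfrc (uptake), Slc40a1 and Heph (export), Fth1 and Ftl1 (storage), and Epas1 and Hif1a (regulation). They were measured in the intestine of 4 knockout (KO) mice, in which Cre under the Villin promoter, active in gut epithelium, removes the promoter and initial exons of Nfkbia, and of 4 wild-type (WT) littermates. The product of Nfkbia, IκBα, binds NF-κB transcription factors and keeps them out of the nucleus. RNA came from whole frozen tissue, with no isolation of epithelium given, so other cells of the gut wall contribute. The mice were untreated, ate standard pellets and formed 4 sibling pairs. Pair 1 had 2 males of 8 weeks, pair 2 had 2 females of 11 weeks, pair 3 had a KO male and a WT female of 8 weeks, and pair 4 had a KO female and a WT male of 9 weeks. Whether the WT siblings carried a floxed allele or Cre is not given in the labels. The series text names duodenum and the sample labels small intestine.

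Dietary iron is taken up mainly in the duodenum. At the brush border it is reduced by the ferrireductase Dcytb (Cybrd1) and imported by the divalent metal transporter DMT1 (Slc11a2). At the other face of the enterocyte ferroportin (Slc40a1) exports it, and the ferroxidase hephaestin (Heph) oxidises it for binding to transferrin, while iron that is not exported is kept in ferritin (Fth1, Ftl1). Low iron and low oxygen stabilise HIF-2α, the product of Epas1, which is known in mouse gut to switch on Slc11a2, Cybrd1 and Slc40a1. Iron regulatory proteins act after transcription: in iron-poor cells they stabilise Tfrc mRNA and block translation of ferritin mRNA. HIF-2α and ferritin are thus controlled largely at the level of protein, which an RNA array does not see.

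Values are the deposited log2 expression values, on which a difference of 1 is a doubling, and a difference is always KO minus its WT sibling. Nfkbia itself was 6.82, 6.65, 7.72 and 6.65 in the KO mice of pairs 1 to 4, against 9.75, 9.91, 9.01 and 9.78 in their WT siblings, a difference of −2.65 ± 0.918 (SD, n = 4 pairs, limma adjusted p = 0.0130). The 10 iron genes were above the background level of 5.64 (olfactory receptor genes, 95th percentile) on all 8 arrays. In the deposited values the 4 pair means of most probe sets are nearly equal, so that a high KO value goes with a low value of its sibling. Groups that do not overlap then add little to 4 pair differences of the same sign. Of all probe sets 3667 were higher in KO mice in all 4 pairs, and in 3533 all KO values lay above all WT values. Results are therefore given inside pairs, and the test was limma with the pair as a block, adjusted over all 22206 probe sets with a threshold of 0.05. The defining markers of the proximal gut (Pdx1, Gata4, Onecut2) and of the ileum (Fabp6, Slc10a2) were all above background in both groups.

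Among the uptake genes, the iron importer Slc11a2 rose in KO intestine. It was 10.42, 10.89, 10.77 and 11.15 in the KO mice of pairs 1 to 4, against 9.57, 9.31, 9.52 and 9.27 in their WT siblings. Each KO mouse lay above each WT mouse, and the siblings differed by 0.85, 1.58, 1.25 and 1.88. The mean difference of 1.39 ± 0.442 (SD, n = 4 pairs) is 2.62-fold (95% interval 1.0 to 1.78 on the log2 scale, limma adjusted p = 0.0129). In whole tissue a change in the number of cells of a type and a change in RNA per cell cannot be told apart. The call was lost without pair 2 (difference 1.33, limma adjusted p = 0.0622). It was also lost with the mean of acinar pancreas genes as a covariate (1.28, limma adjusted p = 0.0503).

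**Figure D1:**
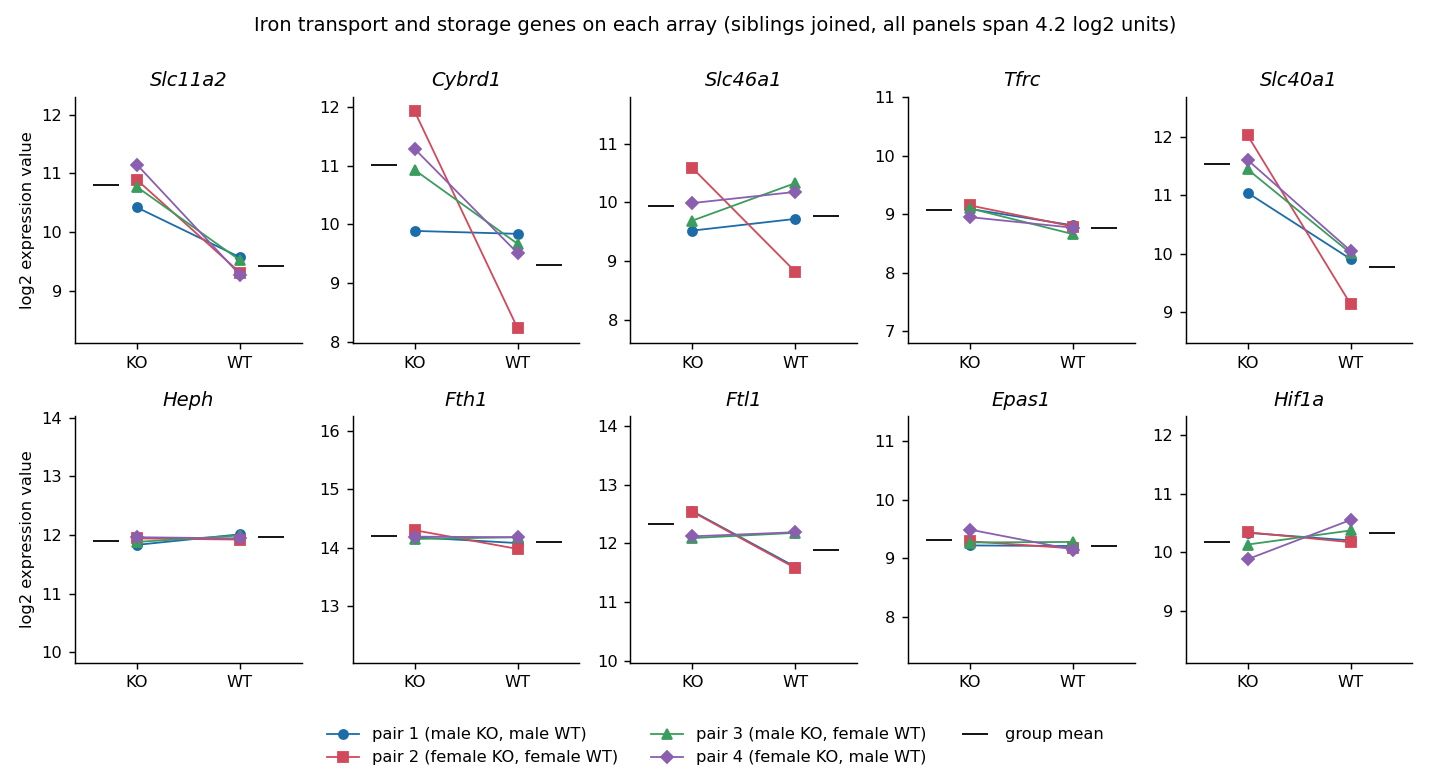
Log2 expression value (y axis) of the 10 iron genes in KO and WT intestine. Each point is 1 array, lines join siblings, short bars are group means, and every panel spans the same height. Slc11a2 and Slc40a1 are higher in the KO mouse of each pair, Cybrd1 spreads most, and Heph, Fth1 and Epas1 are nearly level.

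The ferrireductase gene Cybrd1 had a mean difference of 1.70, close to that of Slc40a1, but did not pass the test. It was 9.89, 11.93, 10.93 and 11.29 in the KO mice of pairs 1 to 4, against 9.84, 8.23, 9.67 and 9.51 in their WT siblings. All KO values lay above all WT values, yet the siblings of pair 1 were almost equal (0.05), while those of pair 2 differed by 3.70, and pairs 3 and 4 by 1.26 and 1.78. With an SD of 1.52 the 95% interval ran from 0.47 to 2.93 (limma adjusted p = 0.0975). Without pair 2 the difference was 1.03 (limma adjusted p = 0.168).

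Slc46a1 encodes the proton-coupled folate transporter, also described as a haem carrier. It was 9.52, 10.59, 9.69 and 9.99 in the KO mice of pairs 1 to 4, against 9.72, 8.82, 10.33 and 10.18 in their WT siblings. It was higher in the KO mouse of pair 2 alone (1.77) and lower in the other 3 (−0.20, −0.64 and −0.19), with a mean of 0.18 and a 95% interval of −0.70 to 1.07 (limma adjusted p = 0.779). Without pair 2 the mean difference was −0.34. In pair 2 the gene thus shared the direction of Slc11a2 and Cybrd1, and in the other pairs it did not.

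Tfrc, the transferrin receptor, takes up iron from the blood side and is most abundant in dividing crypt cells. It was 9.09, 9.15, 9.10 and 8.95 in the KO mice of pairs 1 to 4, against 8.81, 8.79, 8.66 and 8.77 in their WT siblings. The groups did not overlap, and the differences of 0.28, 0.36, 0.44 and 0.18 were the most even among the uptake genes. Their mean of 0.32 ± 0.111 (1.24-fold, 95% interval 0.13 to 0.50) missed the threshold (limma adjusted p = 0.0610). It passed in the fit with trended and robust variance (limma adjusted p = 0.0365) and in that without the pair block (limma adjusted p = 0.00330). The fit without the block called 16.3% of all probe sets higher and 18.1% lower. In the other 19 settings Tfrc was not called. Limma adjusted p was 0.108 to 0.186 in the fits without 1 pair and 0.241 with a random block. With centring on housekeeping genes, whose mean was itself higher in KO mice, the difference was 0.15 (limma adjusted p = 0.205).

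Promoters of 3 uptake genes are shown because HIF proteins bind DNA at a short core, ACGTG or GCGTG, and because these 3 uptake genes had matched promoter sequence. RefSeq promoter sequence (GRCm38.p6) was matched for 6 of the 10 members, Cybrd1, Slc46a1, Tfrc, Fth1, Ftl1 and Hif1a, and was not for Slc11a2, Slc40a1, Heph and Epas1. The 250 bases before the annotated start are printed, and capitals mark the core on either strand (CACGT and CACGC on the other strand). The windows lie at chr2:71117804-71118053 (plus strand) for Cybrd1, chr16:32608646-32608895 (plus strand) for the first of 2 starts of Tfrc, and chr11:78465451-78465700 (plus strand) for Slc46a1.
Cybrd1: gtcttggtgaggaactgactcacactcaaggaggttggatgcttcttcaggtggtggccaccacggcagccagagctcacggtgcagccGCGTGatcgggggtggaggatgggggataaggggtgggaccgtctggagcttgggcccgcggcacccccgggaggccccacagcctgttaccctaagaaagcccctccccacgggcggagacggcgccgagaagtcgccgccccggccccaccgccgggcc
Tfrc: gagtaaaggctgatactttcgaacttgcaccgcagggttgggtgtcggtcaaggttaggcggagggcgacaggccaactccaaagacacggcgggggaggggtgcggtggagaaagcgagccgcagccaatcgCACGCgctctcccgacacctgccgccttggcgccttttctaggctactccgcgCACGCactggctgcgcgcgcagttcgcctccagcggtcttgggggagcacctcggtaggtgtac
Slc46a1: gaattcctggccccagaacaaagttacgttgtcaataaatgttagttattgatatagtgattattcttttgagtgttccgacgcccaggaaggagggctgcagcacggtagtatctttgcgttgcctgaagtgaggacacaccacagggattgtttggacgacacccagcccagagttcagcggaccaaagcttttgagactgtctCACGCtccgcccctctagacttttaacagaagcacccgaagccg
The Cybrd1 window holds 1 GCGTG, 161 to 157 bases before the start. The Tfrc window holds 2 GCGTG on the other strand, and the window of its second start 3 cores, among them an ACGTG. Slc46a1 has 1 GCGTG on the other strand, 44 to 40 bases before the start. A core was found in 38.6% of all 32851 promoter windows of this length, and ACGTG in 16.6%, so a match describes the letters and no binding.

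On the export side the ferroportin gene Slc40a1 rose. It was 11.04, 12.02, 11.44 and 11.60 in the KO mice of pairs 1 to 4, against 9.91, 9.14, 10.01 and 10.05 in their WT siblings. The groups did not overlap. The differences of 1.13, 2.88, 1.43 and 1.55 gave a mean of 1.75 ± 0.775, or 3.36-fold (95% interval 1.10 to 2.39, limma adjusted p = 0.0231). The call was lost without pair 1, 3 or 4 (limma adjusted p = 0.0525, 0.0526 and 0.0745) and kept without pair 2 (difference 1.37, limma adjusted p = 0.0179). It was also lost with sex beside the block (0.0557), a random block (0.0543), trended and robust variance (0.0641) and the adipose mean (0.0606), all limma adjusted p-values.

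Heph, whose product works beside ferroportin and oxidises the exported iron, was not called. It was 11.83, 11.94, 11.88 and 11.96 in the KO mice of pairs 1 to 4, against 12.01, 11.92, 11.99 and 11.94 in their WT siblings. The groups overlapped, and the mean difference of −0.06 had a 95% interval of −0.24 to 0.11 (limma adjusted p = 0.623). Inside pairs the difference of Slc40a1 exceeded that of Heph by 1.31, 2.86, 1.54 and 1.53. Its difference minus that of Slc11a2 was 0.28, 1.30, 0.18 and −0.33, a mean of 0.36 ± 0.683 (exact two-sided sign flips, p = 0.5). Exact sign flips of 4 pairs cannot go below p = 0.13, the value for Slc40a1 against Heph, and over the 10 such relations computed the adjusted p there was 0.25.

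**Figure D2:**
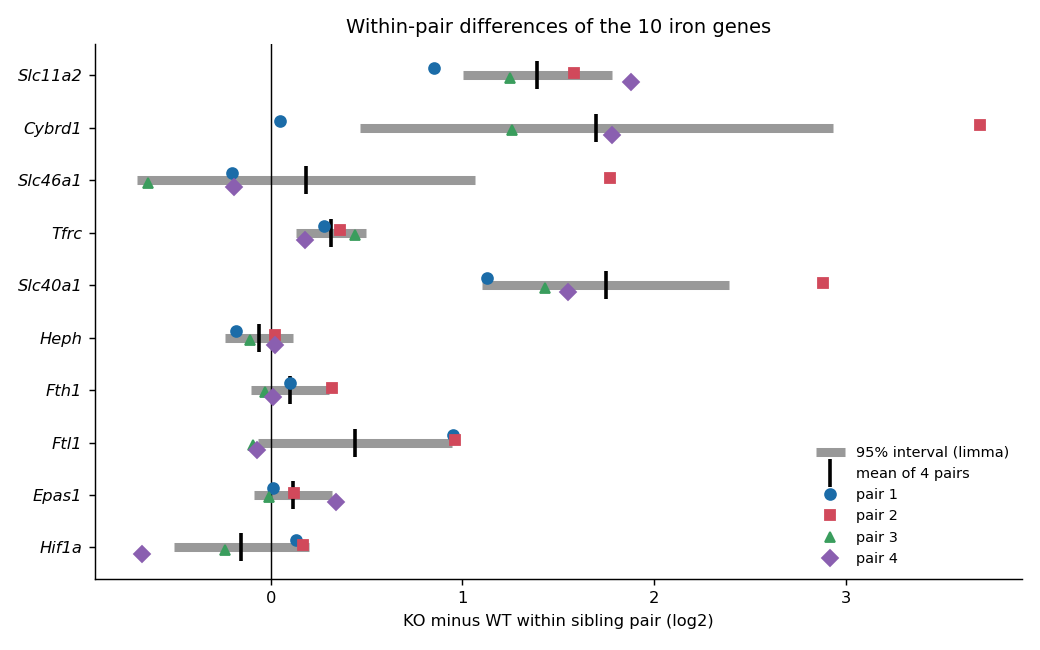
Difference KO minus WT (x axis, log2) of the 10 iron genes. Coloured points are the 4 sibling pairs, black ticks their mean and grey bars the 95% interval of the limma fit. The intervals of Slc11a2, Slc40a1, Cybrd1 and Tfrc lie above 0, of which Slc11a2 and Slc40a1 passed the adjusted threshold.

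Pair 2 held the largest differences of Slc40a1, Cybrd1 and Slc46a1, and some genes of the proximal small intestine differed most in that pair as well. The duodenal transcription factor genes Pdx1, Onecut2 and Gata4 differed by 1.90, 2.91 and 0.93 in pair 2. In pair 1 the same genes differed by −0.07, 0.46 and −0.42, in pair 3 by 1.76, 0.70 and 0.25, and in pair 4 by 2.03, 1.55 and 0.54. Thus Pdx1 was largest in pair 4, and Onecut2 and Gata4 were largest in pair 2. S100g, the calcium-binding protein of the proximal gut, differed by 0.94, 3.96, 0.80 and 1.2 in pairs 1 to 4, so that it too was largest in pair 2. Pair 1 had the lowest differences of Pdx1, Onecut2 and Gata4 and also of Slc11a2, Slc40a1 and Cybrd1, while S100g was lowest in pair 3. A further factor gene of the proximal list, Onecut3, ran the other way, with differences of −0.32, −0.63, −0.39 and 0.00 in pairs 1 to 4. Tff2, a mucosal peptide gene of the same list, differed by −0.56, −0.48, −4.35 and −4.26. None of Pdx1, Onecut2, Gata4, Onecut3, Tff2 and S100g passed the test (limma adjusted p from 0.0612 to 0.344), and they were named after their values were seen.

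Over all probe sets 3.16% were called higher and 2.70% lower. Of the whole proximal marker list 0 of 9 measured genes were called higher and 2 lower, the hormone genes Sct and Gip. At unadjusted p under 0.05, 2 were higher and 4 lower, where 13.2% of all probe sets were higher and 14.2% lower at that level. The mean level of the list ran from 8.01 to 8.41 in KO mice and from 7.91 to 8.45 in WT mice. Of 8 distal markers 1 was called higher (Fabp6, 0.41) and 0 lower, while Nts (−0.99) and Slc51a (−0.41) were lower in all 4 pairs without a call (limma adjusted p = 0.0750 and 0.0561). Lower in all 4 pairs were 3970 of all 22206 probe sets. The median difference of the distal list was −0.19, with mean levels of 8.72 to 9.28 in KO mice and 9.03 to 9.58 in WT mice. With the mean of Pdx1, Gata4 and Onecut2 as a covariate beside the block, a setting chosen after the data were seen, Slc11a2 differed by 0.91 (limma adjusted p = 0.467) and Slc40a1 by 0.90 (limma adjusted p = 0.473). Cybrd1 then differed by −0.17 (limma adjusted p = 0.865) and limma called 0 of all probe sets (1122 higher and 1132 lower at unadjusted p under 0.05). The part of the sampled segment in the iron gene differences was not tested further.

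**Figure D3:**
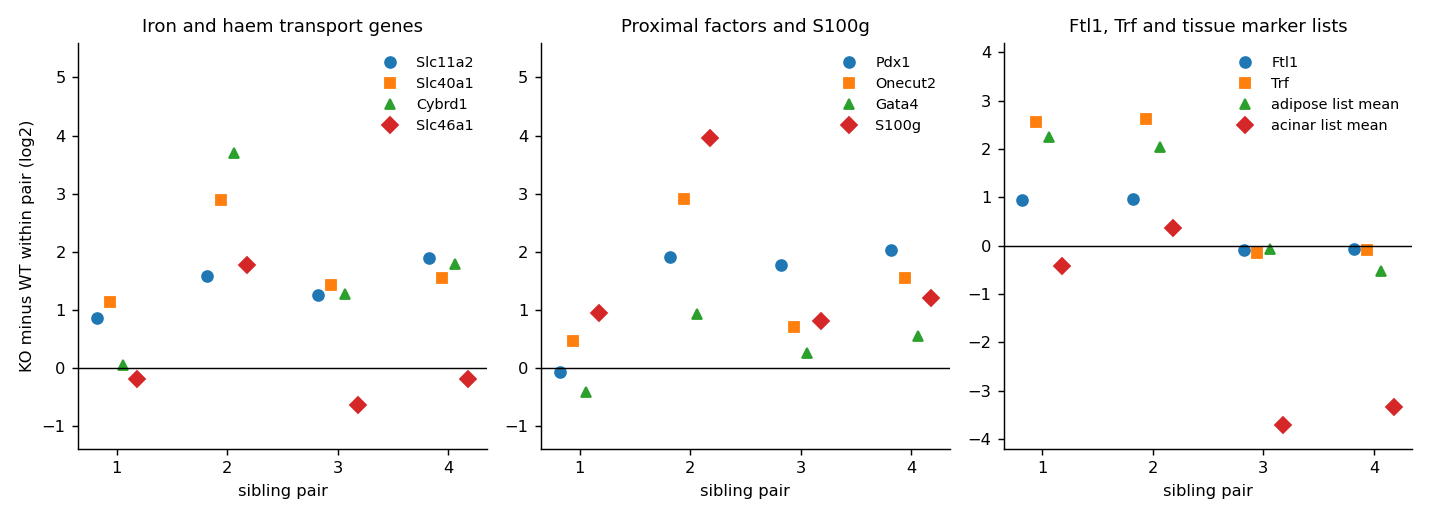
Difference KO minus WT (y axis, log2) in each sibling pair (x axis). The left panel shows iron and haem transport genes, the middle panel proximal transcription factor genes and S100g, and the right panel Ftl1, Trf and the means of the adipose and acinar marker lists. Slc40a1, Cybrd1, Slc46a1, Onecut2, Gata4 and S100g are highest in pair 2, and Ftl1, Trf and the adipose mean are high in pairs 1 and 2 only.

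Neither ferritin gene was called. Fth1, the heavy chain with the ferroxidase site, was 14.18, 14.30, 14.15 and 14.19 in the KO mice of pairs 1 to 4, against 14.08, 13.98, 14.18 and 14.18 in their WT siblings. The groups overlapped, and the mean difference was 0.10 (95% interval −0.10 to 0.30, limma adjusted p = 0.483). Slc11a2 exceeded Fth1 in its difference by 0.75, 1.26, 1.28 and 1.87 in pairs 1 to 4, and Slc40a1 did so by 1.03, 2.56, 1.46 and 1.54.

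Ftl1, the light chain, split the pairs. It was 12.55, 12.54, 12.09 and 12.12 in the KO mice of pairs 1 to 4, against 11.60, 11.58, 12.18 and 12.19 in their WT siblings. The siblings differed by 0.95 and 0.96 in pairs 1 and 2, which are of 1 sex each, and by −0.09 and −0.07 in pairs 3 and 4, which are of opposite sex. The mean of 0.44 had a 95% interval of −0.07 to 0.94 (limma adjusted p = 0.236). The serum iron carrier gene Trf split in the same way, with differences of 2.56, 2.63, −0.14 and −0.08 (limma adjusted p = 0.188), and was named after its values were seen. So did the mean of 11 adipose markers (2.25, 2.04, −0.07 and −0.53), whose mean level ran from 7.26 to 8.76 in KO mice and from 6.52 to 7.78 in WT mice. With the adipose mean beside the block Ftl1 differed by 0.05, and with the acinar mean by 0.95 (limma adjusted p = 0.0156). The acinar mean differed by −0.42, 0.37, −3.71 and −3.33 in pairs 1 to 4, so both covariates split the pairs as Ftl1 does. These fits therefore cannot tell tissue RNA from the kind of pair. On pairs 1 and 2 alone Ftl1 differed by 0.955. The part of adipose RNA or of sibling sex in this split was not tested.

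Neither regulator gene was called. Epas1 was 9.22, 9.29, 9.27 and 9.49 in the KO mice of pairs 1 to 4, against 9.21, 9.17, 9.28 and 9.15 in their WT siblings. Its differences of 0.01, 0.12, −0.01 and 0.34 gave a mean of 0.12 (95% interval −0.09 to 0.32, limma adjusted p = 0.423). Slc11a2 exceeded Epas1 in its difference by 0.84, 1.46, 1.26 and 1.54, and Slc40a1 by 1.12, 2.76, 1.44 and 1.21. In pair 4 Epas1 and Slc11a2 both had their largest difference, while in pairs 1 and 3 Epas1 was level and Slc11a2 differed by 0.85 and 1.25.

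Hif1a, which encodes the other main oxygen-regulated subunit, was 10.33, 10.34, 10.13 and 9.88 in the KO mice of pairs 1 to 4, against 10.20, 10.17, 10.37 and 10.55 in their WT siblings. It was higher in KO mice in pairs 1 and 2 (0.13 and 0.17) and lower in pairs 3 and 4 (−0.24 and −0.67). The mean of −0.15 had a 95% interval of −0.50 to 0.20 (limma adjusted p = 0.541).

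Over the 10 genes limma called 2 higher and 0 lower, where 3.16% of all probe sets were called higher and 2.70% lower. In 4 genes, Slc11a2, Slc40a1, Cybrd1 and Tfrc, the groups did not overlap, with the KO mice higher, as was the case for 15.9% of all probe sets. The median difference was 0.25 over the 10 genes and −0.02 over all probe sets. Centring the arrays on housekeeping genes moved the median of all probe sets to −0.18, and Slc11a2 and Slc40a1 still differed by 1.22 and 1.58 (limma adjusted p = 0.00700 and 0.0105). The mean of the housekeeping list was itself higher in KO mice, by 0.23, 0.18, 0.14 and 0.11 in pairs 1 to 4. Such centring therefore lowered every difference. Without the block limma called 4 of the 10 higher, where 16.3% of all probe sets were called higher and 18.1% lower.

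For the lists below, the shares of all probe sets called were 3.16% higher and 2.70% lower, and 13.2% and 14.2% at unadjusted p under 0.05. Beyond the 10 genes, the list of other uptake and reduction genes had 2 of 12 higher and 0 lower. Both encode members of the Steap family of metalloreductases, Steap4 with 1.80 ± 0.379 (limma adjusted p = 0.00410) and Steap1 with 1.45 ± 0.637 (limma adjusted p = 0.0234). Steap4 differed by 1.80, 2.02, 1.27 and 2.12 in pairs 1 to 4, while Cybrd1 was level in pair 1. Whether both genes act in the same cells was not tested. Flvcr2, described as a haem and choline transporter, fell by 0.90, as 1 of 5 genes of iron export and oxidation with 0 higher. Ceruloplasmin (Cp) differed by 1.50, 1.18, 0.43 and 0.15 in pairs 1 to 4, a mean of 0.81 (limma adjusted p = 0.0785). Steap1 and Flvcr2 were each above background on 7 of 8 arrays. Among 4 genes of the iron regulatory system Aco1, which encodes iron regulatory protein 1, was lower (−0.40 ± 0.149, limma adjusted p = 0.0443). Of 4 storage and chaperone genes none was called by limma (1 at unadjusted p under 0.05, Pcbp1 with a difference of 0.275). The ferritin receptor gene Ncoa4 differed by −0.13, 1.01, 0.12 and 0.49 in pairs 1 to 4 (limma adjusted p = 0.234).

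Hepcidin, the liver hormone that removes ferroportin from membranes, was not called in this tissue: Hamp differed by 0.08 and Hamp2 by −0.20 (limma adjusted p = 0.611 and 0.204). Of 14 genes of hepcidin and its control, Hamp and Hamp2 among them, 2 were higher, Hfe (0.48 ± 0.185) and the cytokine gene Il1b (0.67 ± 0.338), and 0 lower. Il1b was above background on 3 of 8 arrays. Haem genes had 2 of 13 higher, the haem oxygenase gene Hmox1 (0.65 ± 0.322) and Alas1, the first enzyme of haem synthesis (0.40 ± 0.117), and 0 lower. The mitochondrial iron importer gene Slc25a28 rose by 0.68 as 1 of 9 genes of mitochondrial iron, with 0 lower. At unadjusted p under 0.05, 6 genes of this list were higher and 1 lower. The lower gene, Slc25a37, differed by −0.90, −1.21, −0.11 and −0.64 in pairs 1 to 4, without a call (limma adjusted p = 0.0598). Slc25a37 was named after its values were seen. Among 7 scavengers Lcn2, which binds bacterial siderophores (3.16 ± 0.305), the iron-binding Ltf (0.82 ± 0.354) and the haemoglobin-binding Hp (2.58 ± 1.5) rose, and 0 fell. The differences of Hp were 3.73 and 4.01 in pairs 1 and 2, where the adipose mean was higher in KO mice, and 1.40 and 1.18 in the other pairs. Hp was above background on 6 of 8 arrays, and the WT mice of pairs 1 and 2 (4.76 and 4.58) lay below it. As pair means are nearly equal in the deposited values, these low WT values go with the high KO values of their siblings (8.49 and 8.59). The call of Hp was lost in each fit without 1 pair (limma adjusted p from 0.0560 to 0.115) and kept with the adipose mean as a covariate (0.00587). Of 15 other metal transport genes 1 was higher, the manganese exporter gene Slc30a10 (0.84 ± 0.408), and 0 lower.

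**Figure D4:**
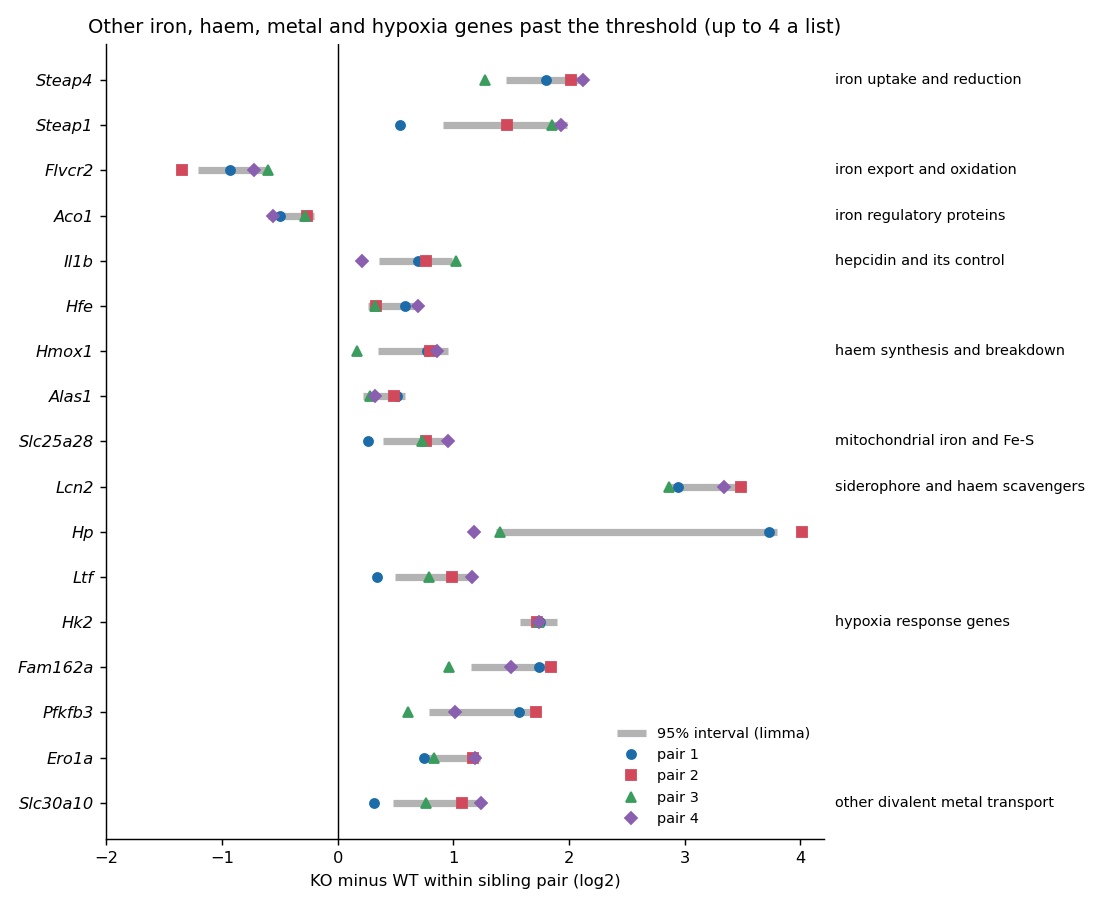
Difference KO minus WT (x axis, log2) of the other iron, haem, metal and hypoxia genes past the limma threshold, with up to 4 genes a list. Coloured points are the sibling pairs and grey bars the 95% interval. Flvcr2 and Aco1 lie below 0 in every pair, the other genes above it.

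Of 8 further genes of the HIF machinery limma called none (2 at unadjusted p under 0.05, both lower, Hif3a at −0.26 and Arnt2 at −0.22). The prolyl hydroxylase gene Egln3 was level (0.00) and was named after its value was seen. Among 27 genes known to respond to hypoxia 6 were higher and 2 lower, with a median difference of 0.23. At unadjusted p under 0.05, 11 of the 27 were higher and 2 lower, where 13.2% of all probe sets were higher and 14.2% lower. Hexokinase 2 (Hk2) rose by 1.74 ± 0.0126, Fam162a by 1.51 ± 0.393, the glycolytic regulator Pfkfb3 by 1.23 ± 0.510 and the oxidase gene Ero1a by 0.98 ± 0.228. Adm (0.90, limma adjusted p = 0.0108) and Slc2a1 (0.73, limma adjusted p = 0.0321) were called higher as well. Both lower genes, Edn1 (−0.69) and Ndrg1 (−0.79), are named because the count is small, after their values were seen. Vegfa (0.09) and Bnip3 (0.09), classical hypoxia targets, were not called (limma adjusted p = 0.579 and 0.602) and were named in the same way. The list thus held called genes of both directions.

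Of the 23 called genes of these iron, metal and hypoxia lists, members included, the calls kept were 12 without pair 1, 7 without pair 2, 12 without pair 3 and 10 without pair 4. Steap4, Lcn2, Edn1, Hk2, Ero1a and Fam162a kept theirs in all 4 of these fits.

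Marker lists of the cells in the tissue were read beside these values. Over all probe sets 3.16% were called higher and 2.70% lower, and 13.2% and 14.2% at unadjusted p under 0.05. Of 15 enterocyte markers 0 were higher and 4 lower, Lct (−2.84 ± 1.38), Slc15a1, Treh and Slc6a19. Mean levels of the enterocyte list were 12.2 to 12.5 in KO mice and 12.7 to 13.1 in WT mice. At unadjusted p under 0.05, 0 enterocyte markers were higher and 8 lower, and 9 were lower in all 4 pairs. Of 10 crypt and proliferation markers 3 were higher (Mki67, Top2a and Rrm2, 0.51 each) and 0 lower, with a median difference of 0.05. At unadjusted p under 0.05, 4 crypt and proliferation markers were higher and 2 lower. The stem cell markers Lgr5 (−0.23) and Ascl2 (−0.27) were lower in all 4 pairs without a call (limma adjusted p = 0.155 and 0.122). Ascl2 was below background on all arrays. Of all 22206 probe sets 3970 were lower in all 4 pairs. Macrophages also make ferroportin: of 15 macrophage markers limma called none, with mean levels of 7.35 to 7.64 in KO mice and 7.49 to 7.75 in WT mice. At unadjusted p under 0.05, 1 macrophage marker was higher and 3 lower, where 13.2% of all probe sets were higher and 14.2% lower. The largest differences among the macrophage markers were those of Lyz2 (−0.50) and Mrc1 (0.35), both without a call (limma adjusted p = 0.147 and 0.429). Spic and Vsig4, markers of tissue macrophages, were below background on all arrays. Of 4 red cell markers none was called (0 at unadjusted p under 0.05), with mean levels of 5.48 to 5.61 in KO mice and 5.64 to 5.74 in WT mice, and Epb42 and Rhag were below background. Acinar markers differed by means of −0.42, 0.37, −3.71 and −3.33 in pairs 1 to 4, with 0 of 14 called (8 lower at unadjusted p under 0.05) and mean levels of 6.77 to 8.44 in KO mice and 8.07 to 10.5 in WT mice. Of 11 adipose and 8 smooth muscle markers 0 were called (6 and 0 at unadjusted p under 0.05), and of 7 B and T cell markers 1 was higher (Cd4, 0.40) and 0 lower. The T cell genes Cd3g (−0.56) and Cd3e (−0.31) were lower in all 4 pairs without a call (limma adjusted p = 0.0648 and 0.173), and Cd8a differed by −0.34 (limma adjusted p = 0.325). The uncalled genes of these marker lists were named after their values were seen. The part of these other cells in the iron gene differences was not tested.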

How the data were processed

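RNA of 8 intestines was hybridised to Clariom S mouse arrays. The authors deposited log2 expression values. The submitters' processing notes list RMA and version 4.0 of the Transcriptome Analysis Console; the genome build is not stated there. The 4 pair means of a probe set lay within 0.05 for 70.0% of probe sets, and siblings' deviations from their group means correlated between −0.913 and −0.870. The labels give the sibling pairs, and the series text says that each knockout was compared with a littermate, so the pair is a block. Limma 3.58.1 in R 4.3.3 (lmFit, eBayes) was fitted to all 22206 probe sets with Benjamini-Hochberg adjustment, two-sided, and tested on simulated data. Values after ± are SDs of the 4 within-pair differences, and 3 residual degrees of freedom limit the precision, as does the number of arrays. Across probe sets the differences of pairs 1 and 2 (r = 0.682) and of pairs 3 and 4 (r = 0.673) were more alike than those of other pairs (0.346 to 0.420), which the fit does not allow for, so its p-values may be too small. No filter was used. Of the probe sets 19572 had 1 gene symbol, 0 several and 2634 none in the platform table. The members and lists were chosen with earlier results of these data known. Named genes are the 10 members, Nfkbia, and in each other list up to 4 called genes. In lists without a call the 2 with the largest difference were to be named, which was not done for every marker list. Other genes are given as values beside a result. Alternatives are in the closing section.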

Additional observations from a re-analysis of the deposited data

Results flagged for a closer look

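Over the 10 iron genes, the KO values, the WT values and the within-pair differences were searched for a sample far from the others, 30 groups of 4 in all, of which chance marks about 1 in 20. In 1 group a sample stood apart: Slc40a1 in the WT mouse of pair 2 was 9.14, while the nearest of the other WT mice was 9.91. As pair means are nearly equal in the deposited values, this low WT value goes with the high KO value of 12.02 in its sibling.

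For 2 genes both same-sex pairs (1 and 2) had one sign and both opposite-sex pairs (3 and 4) the other, which was not tested as a difference. The mean difference in the same-sex pairs exceeded that in the opposite-sex pairs by 1.03 for Ftl1 and by 0.60 for Hif1a (log2). By means alone Slc46a1 (0.785 in the same-sex pairs and −0.415 in the opposite-sex pairs) and Fth1 (0.21 and −0.01) also turned, but their single pairs did not share a sign within each kind.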

How the results depend on the processing

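Slc11a2, Slc40a1 and Tfrc were positive in every setting run, although fits on fewer pairs could not turn them, as all 4 pairs were positive. Leaving out each pair in turn gave 1.23 to 1.57 for Slc11a2, 1.37 to 1.95 for Slc40a1, 1.03 to 2.25 for Cybrd1, −0.09 to −0.02 for Heph, 0.27 to 0.36 for Tfrc, 0.03 to 0.14 for Fth1, 0.26 to 0.61 for Ftl1, −0.34 to 0.46 for Slc46a1, 0.04 to 0.16 for Epas1 and −0.26 to 0.02 for Hif1a. In these fits 1 of the 10 genes was called higher each time and 0 lower, with 89 to 219 probe sets higher and 56 to 240 lower in all. On pairs 1 and 2 alone Slc11a2 differed by 1.22, Slc40a1 by 2.005 and Hif1a by 0.15, on pairs 3 and 4 alone Slc11a2 by 1.56, Slc40a1 by 1.49, Fth1 by −0.01, Ftl1 by −0.08 and Slc46a1 by −0.41; limma called 0 iron genes in either (4 and 3 higher at unadjusted p under 0.05). Over all probe sets it called 0 higher and 0 lower (2540 and 2738 at unadjusted p under 0.05), and 1 higher and 25 lower, with fewer samples in the fit.

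The fit without the replicate block called 4 iron genes higher, adding Cybrd1 (1.70, limma adjusted p = 0.0215) and Tfrc (0.31, limma adjusted p = 0.00330), with 3622 probe sets higher and 4026 lower; it treats siblings as independent. The random block left 1 iron gene (Slc40a1 at 1.75 lost its call) and 982 lower probe sets. Sex as a covariate left 1 (Slc40a1 at 1.75 lost its call; 231 higher and 233 lower in all), RNA integrity 212 higher and 152 lower. With the acinar mean Slc11a2 differed by 1.28, Ftl1 by 0.95 and Hif1a by 0.14, with 350 lower in all. With the adipose mean 1 iron gene was called, Slc40a1 differed by 1.59 and Slc46a1 by −0.21. With the mean of Pdx1, Gata4 and Onecut2, chosen after seeing the data, Slc11a2 differed by 0.91, Slc40a1 by 0.90, Cybrd1 by −0.17 and Slc46a1 by −0.75; limma called 0 iron genes (2 higher at unadjusted p under 0.05) and 0 higher and 0 lower in all (1122 and 1132 at unadjusted p under 0.05). Trended and robust variance called Tfrc (0.31) and lost Slc40a1 (1.75), with 1135 higher in all. Centring on housekeeping genes, whose mean was itself higher in KO mice, lowered every difference. It turned Fth1 to −0.066 and Epas1 to −0.051 and gave 5175 lower in all. Of the calls 8.78% were then higher, against 54.0% in the reported fit and 44.4% after centring on epithelial genes. The causes of these changes were not tested. No call of the 10 genes changed with array weights, quantile normalization, the filters on dim probe sets, epithelial centring or averaged probe sets. The number of pairs limits what could be detected.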
